A study of Bos taurus with 8 samples.

Results

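Activin and Nodal signalling was followed through 10 genes in bovine embryonic stem cells (bESCs): the ligands NODAL, GDF3 and INHBA, the secreted inhibitor LEFTY2, the receptors ACVR1B, ACVR2A and ACVR2B, the receptor-activated SMADs SMAD2 and SMAD3, and the inhibitory SMAD7. They were taken by name, for their place in the pathway and with earlier results of these data known, from the 32640 genes listed in the deposited counts. All 10 had values and passed the filter on low counts, among 15744 genes tested.

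Activin and Nodal are secreted factors of the TGF-β family that bind the type II receptors ACVR2A and ACVR2B, which in turn activate a type I receptor such as ACVR1B. The activated receptor phosphorylates SMAD2 and SMAD3, which enter the nucleus with SMAD4 and act on target genes, among them inhibitors of the same pathway such as LEFTY2 and SMAD7. In primed pluripotent stem cells this signal is known to sustain self-renewal, and mouse feeder cells are a known source of Activin A.

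Each condition held 4 libraries, 1 from each of the XX lines A, C, D and E, which were cultured in 5% O2 in NBFR medium either on MEF (a layer of irradiated mouse embryonic fibroblasts) or feeder-free on vitronectin. Cells on MEF were at passage 15 to 17 and feeder-free cells at passage 20 to 22, so the effects of passage and of matrix cannot be told apart. By the sample records both conditions had the medium that contains Activin A, but the methods of the paper add Activin A when cells are grown without feeders. If so, the added ligand changed together with the matrix and cannot be told apart from it either. Mouse cells were present on MEF only, and the methods of the paper describe a correction of the counts for them. The part of mouse reads, or of that correction, in the differences between conditions was not tested for any gene. The question these libraries address is how the transcriptome changes when the same lines move from feeders to a defined matrix.

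Total counts on genes ranged from 44268717 to 102351560 per library, and the highest, that of the feeder-free library of line D, was about double the next. Summed levels of 7 pluripotency genes, which include POU5F1, SOX2 and NANOG, were 5063 to 5744 CPM (counts relative to library size, per 1000000, after scaling by edgeR's TMM method) on MEF and 4344 to 5123 CPM feeder-free. The 7 genes of trophoblast summed to 534 to 912 CPM on MEF and 573 to 2044 CPM feeder-free, nearly all of it KRT8, a keratin also made by other epithelial cells, which was higher feeder-free in all 4 lines and was, of the 3 tested, the 1 gene called higher with the lines paired. GATA3 was at no more than 3.16 CPM in any library. CDX2, PAG2 and IFNT2 had no count in any library, which at 3 counts in the shallowest library allows up to 0.0678 CPM, and 6 genes of hypoblast or endoderm summed to at most 15.2 CPM. The summed level of 14 fibroblast genes was 355 to 461 CPM on MEF and 181 to 1151 CPM feeder-free, and COL1A1, at 115 to 1033 CPM, made up most of it in every library. The fibroblast genes went both ways. COL1A2, TWIST2 and PRRX1 were higher in every library on MEF than in any feeder-free library, at no more than 4.64 CPM. TWIST1 was higher on MEF in all 4 lines, with overlap, at 9.71 to 21.2 CPM on MEF and 6.80 to 17.5 CPM feeder-free. COL3A1, PDGFRB and S100A4 were higher feeder-free in all 4 lines, also with overlap, at no more than 30.8 CPM. Of the 12 tested, 2 were called higher and 2 lower with the lines paired. In bulk samples such as these, fewer cells of a type and less RNA per cell cannot be told apart. The part of mouse reads in the fibroblast genes that were higher on MEF was not tested.

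Feeder-free culture was accompanied by lower levels of LEFTY2, of the type II receptors ACVR2A and ACVR2B and of SMAD3, by 1.53 to 1.68-fold with the lines paired. NODAL, SMAD2 and SMAD7 had paired log2 fold changes of at most 0.06 in size. Genes were called at an adjusted p under 0.05 in edgeR's quasi-likelihood test and a fold change of at least 1.5. In the unpaired fit, 0 of the 10 genes were called, where 1.73% of all tested genes were called in either direction. In that fit 5 of the 10 had an unadjusted p under 0.05, all with lower values feeder-free, where 21.6% of all tested genes had such a p and 11.4% had one with a lower value. By DESeq2 and by edgeR's likelihood ratio test 1 of the 10 was called, where 7.70% and 5.32% of all tested genes were.

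Because the same 4 lines stood in both conditions, a fit with line as a paired term (a replicate block) was set beside the unpaired one. In it 0 of the 10 were called higher, where 5.52% of all tested genes were, and 4 of the 10 were called lower, where 4.53% of all tested genes were. The median unpaired change over the 10 genes was a log2 fold change of -0.26, with a range of -0.73 to 0.61, beside a median of 0.006 over all tested genes. The 7 pluripotency genes had a median of -0.30, with 0 called in either fit. Of them, 5 had lower values feeder-free in all 4 lines, where 3258 of all 15744 tested genes did. In 4 of them the levels feeder-free lay wholly under those on MEF, where 8.35% of all tested genes did. The part of the pluripotency genes in the lower values of the pathway genes was not tested.

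**Figure D1:**
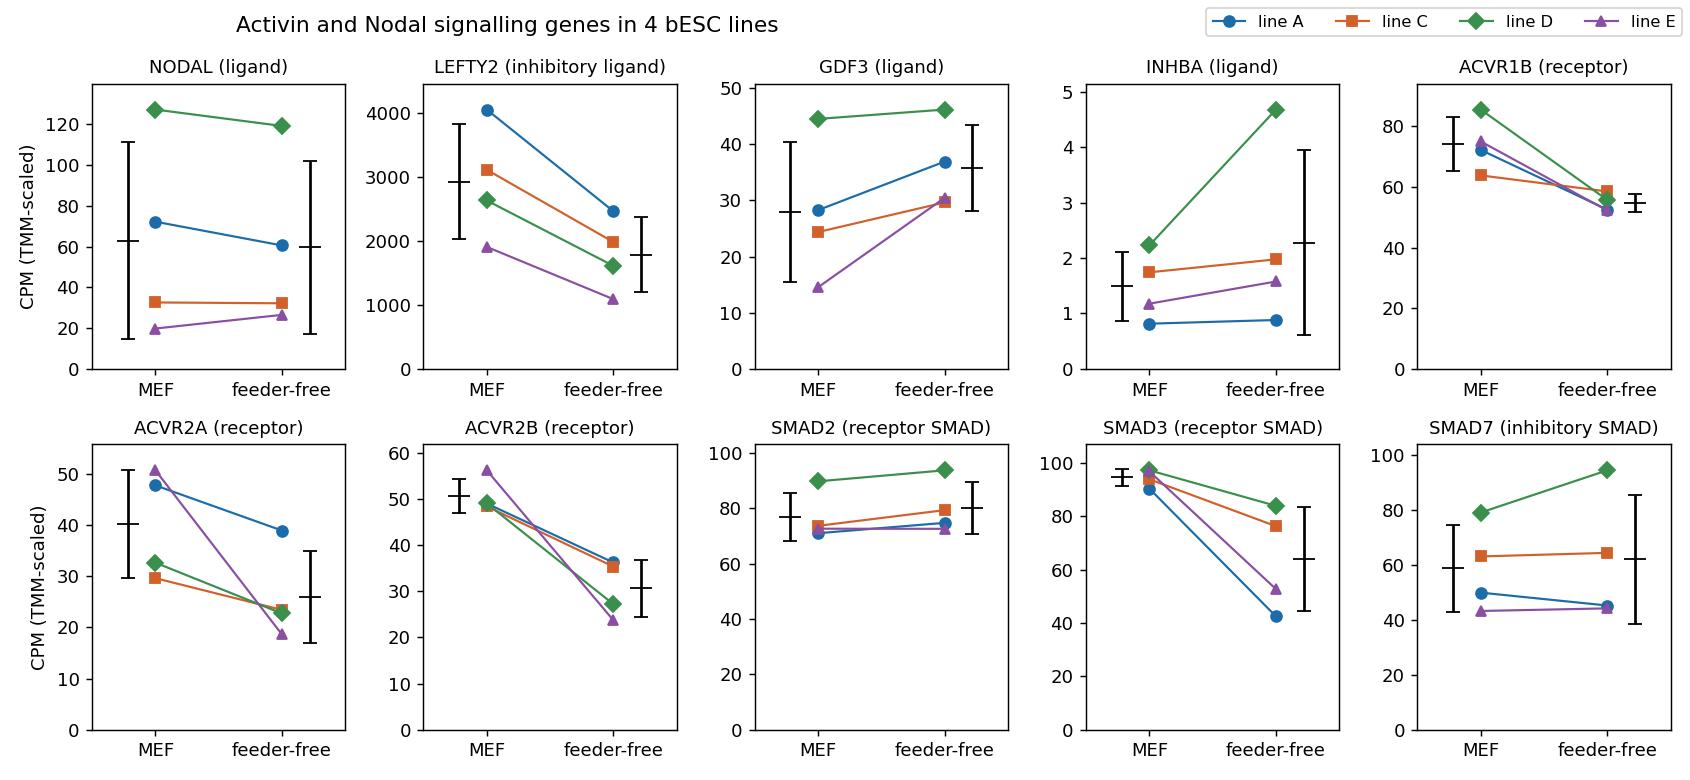
Level of each of the 10 genes in CPM (y axis, from 0) on MEF and feeder-free, with 1 colour and symbol per line and black bars for the mean ± SD of 4 lines. LEFTY2, ACVR1B, ACVR2A, ACVR2B and SMAD3 sloped down in all 4 lines, and NODAL spread over 19.8 to 127 CPM between lines in a like order in both conditions.

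NODAL, the ligand that gives the branch its name, lies on chromosome 28, 26636791 to 26643883 (ARS-UCD2.0, as are all positions here). On MEF it was at 72.2, 32.6, 127 and 19.8 CPM in lines A, C, D and E, and feeder-free at 60.6, 32.2, 119 and 26.5 CPM. The lines kept the same order in both conditions, from D through A and C to E, and the conditions overlapped throughout. Means were 63.0 ± 48.3 CPM on MEF and 59.6 ± 42.4 CPM feeder-free (SD, n = 4), and the raw counts behind them ran from 875 to 12201. The paired log2 fold change was 0.010 with a 95% interval of -0.28 to 0.30 (adjusted p = 0.968). Without pairing the estimate was -0.08 with an SE of 0.62.

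What separated NODAL was the line. Averaged over both conditions it was at 123 CPM in line D, 66.4 in line A, 32.4 in line C and 23.2 in line E, and the highest line mean was 5.32 times the lowest. In edgeR's quasi-likelihood test of the 3 line terms together, NODAL differed between lines with an adjusted p of 0.000238. Of the 10 genes 4 passed this test (NODAL, LEFTY2, GDF3 and SMAD7), where 11.8% of all tested genes did.

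LEFTY2 is a secreted factor that blocks Nodal and is itself a target of the pathway. It lies on chromosome 16, 28910505 to 28913354, and was counted deeply, at 56622 to 171224 reads per library. Its levels on MEF were 4047, 3108, 2629 and 1904 CPM in lines A, C, D and E, and feeder-free 2462, 1981, 1609 and 1089 CPM. Every line had a lower level feeder-free, although the conditions overlapped because line E on MEF lay under lines A and C feeder-free. The log2 ratio of feeder-free over MEF was -0.72 in line A, -0.65 in line C, -0.71 in line D and -0.81 in line E, the narrowest spread among the genes called. Means were 2922 ± 899 CPM on MEF and 1785 ± 581 CPM feeder-free (SD, n = 4).

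With the lines paired, LEFTY2 was downregulated 1.65-fold in feeder-free culture (log2 fold change -0.72, SE 0.10, adjusted p = 0.00227). Unpaired, the estimate was almost the same at -0.71, but its SE was 0.29 and the adjusted p 0.193. The paired call held without any one of the 4 lines, with adjusted p of 0.00402 to 0.0201. Lines differed here too (adjusted p = 0.00431), in the order A, C, D, E in both conditions, which is not the order of NODAL: line D had the highest NODAL level and the third LEFTY2 level.

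GDF3 is a ligand related to Nodal that acts with the same receptors, on chromosome 5, 101293199 to 101300004. It was at 28.3, 24.4, 44.5 and 14.5 CPM on MEF and at 36.9, 29.6, 46.2 and 30.4 CPM feeder-free in lines A, C, D and E. All 4 lines were higher feeder-free, and the conditions overlapped. The means were 27.9 ± 12.5 and 35.8 ± 7.64 CPM (SD, n = 4), and the paired log2 fold change was 0.44 with a 95% interval of 0.07 to 0.81 (adjusted p = 0.0963), which did not pass. Line E moved most, with a log2 ratio of 1.07, and line D least, with 0.05.

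INHBA encodes the subunit of which Activin A is a dimer, on chromosome 4, 79279914 to 79304488, where it shares positions with the annotated MIR11996. Its levels were low in all 8 libraries, at 0.82, 1.74, 2.23 and 1.18 CPM on MEF and 0.88, 1.98, 4.68 and 1.58 CPM feeder-free, from 34 to 479 reads. All 4 lines had a higher value feeder-free, and the lines stood in the order D, C, E, A in both conditions. The paired log2 fold change of 0.46 had a 95% interval of -0.22 to 1.14 (adjusted p = 0.328). The unpaired estimate of 0.61 became -0.013 without the feeder-free library of line D, which had the highest INHBA level and also the highest sum of fibroblast genes, at 1151 CPM. The part of that signal in INHBA was not tested.

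ACVR1B, the type I receptor also called ALK4, lies on chromosome 5, 27881757 to 27915594. It was at 72.2, 63.8, 85.5 and 75.0 CPM on MEF and at 52.5, 58.5, 55.7 and 52.2 CPM feeder-free in lines A, C, D and E. Every library on MEF lay above every feeder-free library, and feeder-free lines were close together, with a mean of 54.8 ± 2.96 CPM beside 74.1 ± 8.96 CPM on MEF (SD, n = 4). The paired log2 fold change was -0.43 (SE 0.12, adjusted p = 0.0372), a 1.35-fold lower level and so short of the 1.5-fold threshold, and it was not called. Lines did not pass the test of a difference in ACVR1B (adjusted p = 0.821), and the highest line mean was 1.15 times the lowest.

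ACVR2A and ACVR2B are the type II receptors that bind Activin and Nodal first. ACVR2A, on chromosome 2, 48279645 to 48374634, was at 47.8, 29.6, 32.7 and 50.7 CPM on MEF and at 38.9, 23.4, 22.7 and 18.6 CPM feeder-free. Each line was lower feeder-free, with overlap between conditions since line A feeder-free lay above lines C and D on MEF. Its paired log2 fold change was -0.65 (SE 0.19, adjusted p = 0.0446), and it was called lower at 1.56-fold. Line E contributed most, with a log2 ratio of -1.44 beside -0.29 to -0.52 in the other lines. The call was lost without any one line, where adjusted p was 0.0507 to 0.106, and without line E the log2 fold change was -0.37. It was also lost under RLE scaling and with no scaling, with adjusted p of 0.0504 and 0.0519.

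ACVR2B, on chromosome 22, 11825975 to 11855764, stood at 49.1, 48.4, 49.1 and 56.2 CPM on MEF and at 36.3, 35.4, 27.2 and 23.8 CPM feeder-free. The conditions did not overlap, and on MEF lines A, C and D lay within 1 CPM of each other. The means were 50.7 ± 3.71 and 30.7 ± 6.14 CPM (SD, n = 4). The paired fit gave a 1.68-fold lower level feeder-free (log2 fold change -0.74, SE 0.15, adjusted p = 0.0131), and the unpaired fit -0.73 with an adjusted p of 0.0504, just short of the threshold. ACVR2B was the gene called by DESeq2 and by the likelihood ratio test, at adjusted p of 0.0020 and 0.0067. In the paired fit its call was lost without line D, with an adjusted p of 0.0582, and without line E, where the log2 fold change was -0.57.

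**Figure D2:**
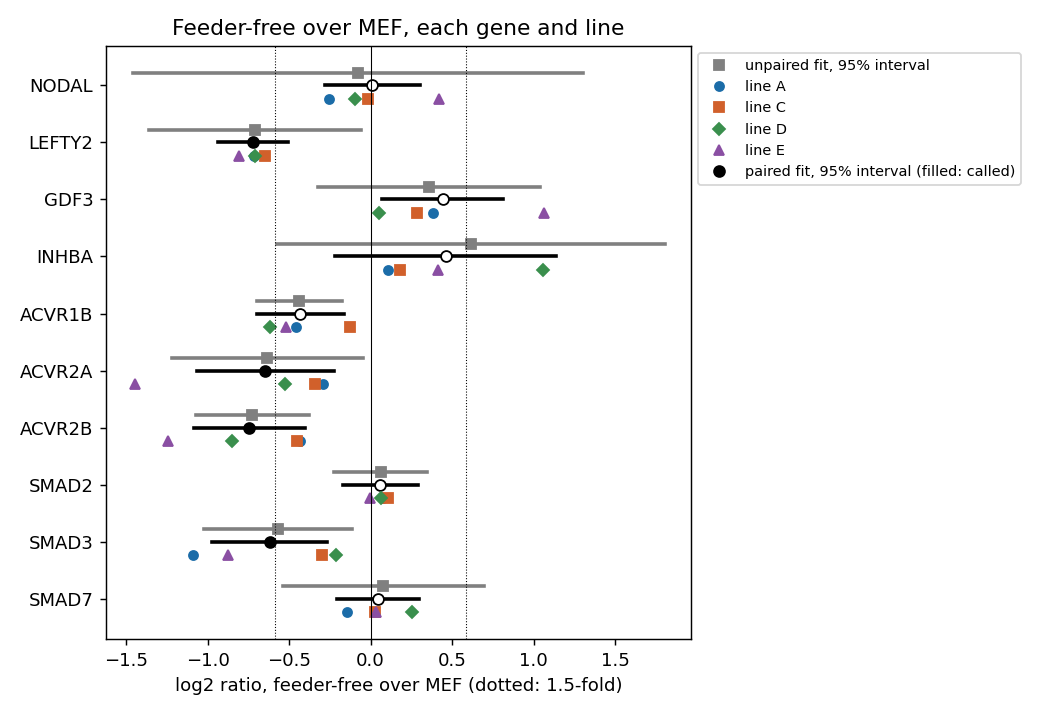
Log2 ratio of feeder-free over MEF (x axis) for each of the 10 genes: grey squares and black circles are the unpaired and paired estimates with 95% intervals, filled circles are genes called in the paired fit, and coloured symbols are the 4 lines. NODAL has the widest gain from pairing, with an SE of 0.62 unpaired and 0.13 paired, and the 4 filled circles all lie left of the dotted 1.5-fold line.

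SMAD2, a receptor-activated SMAD, lies on chromosome 24, 47492798 to 47583339, where it shares positions with the annotated LOC101904605. Its levels were 71.0, 73.6, 89.7 and 72.6 CPM on MEF and 74.7, 79.3, 93.7 and 72.6 CPM feeder-free. The conditions overlapped, with line D the highest in each. The paired log2 fold change was 0.06 with a 95% interval of -0.17 to 0.29 (adjusted p = 0.726). Its largest log2 ratio in any line was 0.11, the smallest such maximum among the 10 genes.

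SMAD3, its partner on chromosome 10, 13895783 to 14022516, was at 90.4, 93.9, 97.2 and 96.8 CPM on MEF, a mean of 94.6 ± 3.18 CPM (SD, n = 4). Feeder-free it was at 42.5, 76.3, 83.9 and 52.7 CPM, a mean of 63.9 ± 19.5 CPM. No feeder-free library reached the lowest level on MEF, and the feeder-free lines were spread about 6 times as widely. Lines A and E had log2 ratios of -1.09 and -0.88, and lines C and D -0.30 and -0.21. In the paired fit SMAD3 was called lower at 1.53-fold (log2 fold change -0.62, SE 0.16, adjusted p = 0.0286), and unpaired it was not (-0.57, adjusted p = 0.146). The paired call was lost without line A, C or E, with adjusted p of 0.0612 to 0.0886, and held without line D. It was also lost with no scaling, where the log2 fold change of -0.58 fell short of 1.5-fold.

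SMAD7, which competes with SMAD2 and SMAD3 for the receptor and targets it for degradation, lies on chromosome 24, 48598698 to 48629007. Its values were 49.9, 63.1, 79.1 and 43.2 CPM on MEF and 45.2, 64.4, 94.4 and 44.2 CPM feeder-free. Lines stood in the order D, C, A, E in both conditions, the conditions overlapped, and the line means differed by 1.99-fold (adjusted p = 0.0108). The paired log2 fold change between conditions was 0.04 with a 95% interval of -0.21 to 0.30 (adjusted p = 0.824).

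Counted over the 10 genes, 3 had levels feeder-free that lay wholly under those on MEF (ACVR1B, ACVR2B and SMAD3), where 8.35% of all tested genes did. Those wholly above were 0, where 6.21% of all tested genes were. The same 3 genes came out with RLE scaling and with no scaling. LEFTY2, ACVR1B, ACVR2A, ACVR2B and SMAD3 had lower values in all 4 lines, as did 3258 of all 15744 tested genes. GDF3 and INHBA had higher values in all 4, as did 3187 of all tested genes.

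Ratios of the raw counts of a gene pair within a library do not depend on scaling between libraries. Each gene's length enters such a ratio, so it is compared between libraries only and does not rank the genes. SMAD2 over SMAD3 was 0.785, 0.784, 0.923 and 0.750 on MEF in lines A, C, D and E and 1.76, 1.04, 1.12 and 1.38 feeder-free. All 4 lines had a higher ratio feeder-free and the conditions did not overlap, with means of 0.811 ± 0.0765 and 1.32 ± 0.324 (SD, n = 4). SMAD7 over SMAD3 was likewise higher in all 4 lines, at 0.446 to 0.813 on MEF and 0.838 to 1.13 feeder-free. SMAD2 and SMAD7 changed little between conditions, so both ratios repeat the lower level of SMAD3 and are not separate results.

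For LEFTY2 over NODAL, lines A, C, D and E had ratios of 56.0, 95.3, 20.7 and 96.1 on MEF and 40.6, 61.5, 13.5 and 41.1 feeder-free. The ratio was lower feeder-free in all 4 lines, the conditions overlapped, and line D was the lowest in each. NODAL changed little with the lines paired, so this ratio is not separate from the lower LEFTY2 level. ACVR2A over ACVR2B moved less, from 0.788 ± 0.177 on MEF to 0.839 ± 0.173 feeder-free (SD, n = 4), and was higher in 3 of 4 lines. No test was made on these ratios.

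**Figure D3:**
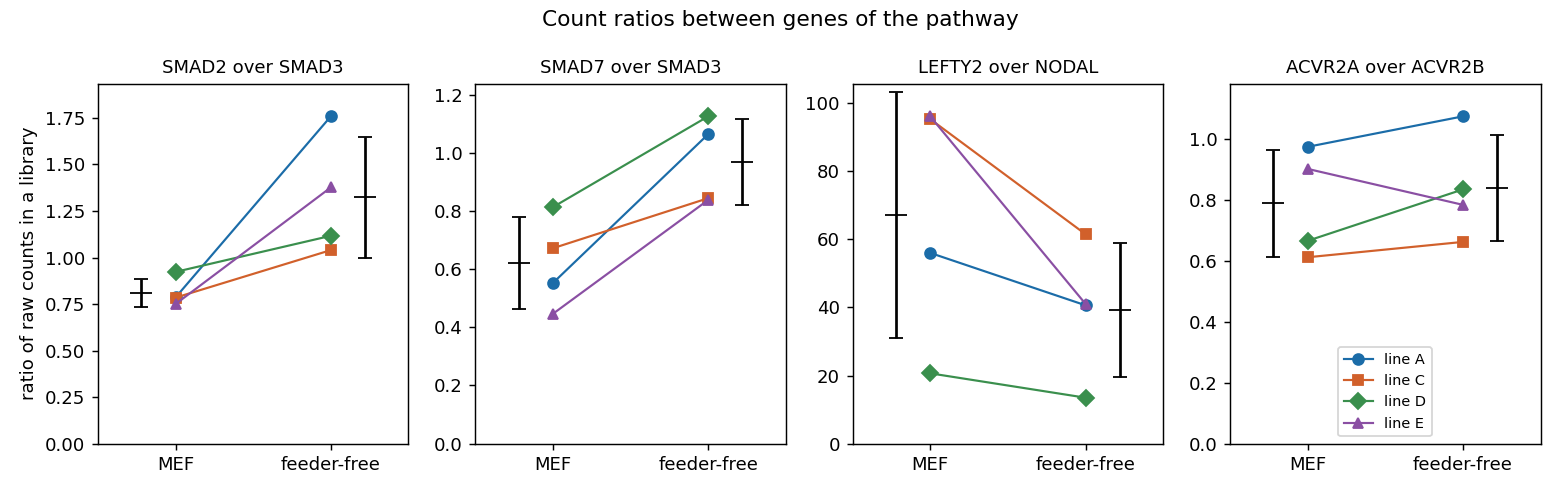
Ratio of raw counts between gene pairs within a library (y axis, from 0) on MEF and feeder-free, with 1 colour and symbol per line and black bars for the mean ± SD of 4 lines. SMAD2 over SMAD3 and SMAD7 over SMAD3 lay higher feeder-free without overlap, LEFTY2 over NODAL was lower in each line, and ACVR2A over ACVR2B overlapped.

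The rest of the pathway was described from a list of 59 genes by role. Of these 57 had values, 51 were tested, and LEFTY1 and CFC1 were not analysed here. In the unpaired fit 1 was called higher (FST) and 1 lower (FGF8). In the paired fit 6 were called higher and 3 lower, beside the 5.52% and 4.53% of all tested genes given above, and the median unpaired log2 fold change was 0.03.

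The group listed as antagonists outside the cell held 3 of the 6 genes called higher, among 7 tested. Of these, FST and FSTL3 are inhibitors of Activin, and LTBP1 is a binder of latent TGF-β. FST encodes follistatin, which binds Activin and neutralises it. It was at 37.4, 37.6, 27.6 and 20.7 CPM on MEF and at 63.1, 65.9, 66.7 and 52.9 CPM feeder-free in lines A, C, D and E. Every feeder-free library lay above every library on MEF, and the mean rose from 30.8 ± 8.21 to 62.1 ± 6.38 CPM (SD, n = 4). FST was upregulated in the unpaired fit (log2 fold change 1.01, adjusted p = 0.0411) and in the paired one (1.05, adjusted p = 0.0022).

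FSTL3, a follistatin-like inhibitor of Activin, was at 9.86, 10.8, 17.0 and 4.10 CPM on MEF and at 9.12, 27.8, 108 and 28.3 CPM feeder-free. It was higher in 3 of 4 lines, and line A was level. Its paired log2 fold change of 1.71 (adjusted p = 0.0249) lost its call without line C, D or E, with adjusted p of 0.0667 to 0.0873. The feeder-free library of line D, with the highest FSTL3 level, was also the one with the highest sum of fibroblast genes and the largest total count. LTBP1, which tethers latent TGF-β to the matrix, was higher in all 4 lines at a paired log2 fold change of 0.90 (adjusted p = 0.0117), a call lost without line C or D.

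Among receptors, CRIPTO, the co-receptor through which Nodal reaches ACVR1B, was at 1.15, 1.02, 6.44 and 0.996 CPM on MEF and at 8.20, 3.50, 20.8 and 11.3 CPM feeder-free. All 4 lines were higher feeder-free and the conditions overlapped only through line D on MEF. The paired log2 fold change was 2.42 (adjusted p = 0.00209) and the unpaired one 2.19 (adjusted p = 0.13). CRIPTO kept its paired call without any one line. TGFBR3, the co-receptor betaglycan, was also higher in all 4 lines at a paired log2 fold change of 0.64 (adjusted p = 0.031), a call lost without line C or D.

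Attenuators inside the cell held 2 of the 3 genes called lower, among 12 tested, and both are known as targets of the pathway that damp it. SKIL, a co-repressor that binds the SMADs, was at 241, 226, 293 and 290 CPM on MEF and at 189, 155, 167 and 123 CPM feeder-free. PMEPA1, a membrane protein that sequesters SMAD2 and SMAD3, was at 167, 175, 171 and 130.3 CPM on MEF and at 88.3, 104, 124 and 65.3 CPM feeder-free. In both genes the conditions did not overlap and all 4 lines were lower feeder-free. Their paired log2 fold changes were -0.73 for SKIL (adjusted p = 0.0116) and -0.78 for PMEPA1 (adjusted p = 0.00409). Of the other 2 inhibitors named above as targets, LEFTY2 had -0.72 and SMAD7 0.04 (adjusted p = 0.824). SKIL lost its call without line E, and PMEPA1 kept its call without any one line.

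Partners of the SMADs held 0 calls among 9 tested in either fit. The paired fit called 5.52% of all tested genes higher and 4.53% lower. Of the 9, 3 lay lower feeder-free without overlap, where 8.35% of all tested genes did. They were SMAD4, the partner that SMAD2 and SMAD3 share, CREBBP, a co-activator, and ZFYVE9. Their paired log2 fold changes of -0.42 (adjusted p = 0.0326), -0.41 (adjusted p = 0.0329) and -0.26 (adjusted p = 0.131) did not reach 1.5-fold. FOXH1, through which Nodal SMADs reach DNA, had a paired log2 fold change of 0.24 (adjusted p = 0.227).

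Targets moved in opposite directions. FGF8, a growth factor of the gastrulating embryo, was at 9.82, 3.49, 4.05 and 4.69 CPM on MEF and at 1.99, 1.24, 0.957 and 1.46 CPM feeder-free. The conditions did not overlap, and FGF8 was downregulated unpaired (log2 fold change -1.96, adjusted p = 0.0466) and paired (-1.89, adjusted p = 0.00228). EOMES, a T-box factor of mesoderm and endoderm, was at 1.70, 3.41, 6.69 and 0.77 CPM on MEF and at 6.26, 6.57, 9.52 and 8.62 CPM feeder-free. It was called higher with the lines paired (1.61, adjusted p = 0.0307), a call lost without line A or C.

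**Figure D4:**
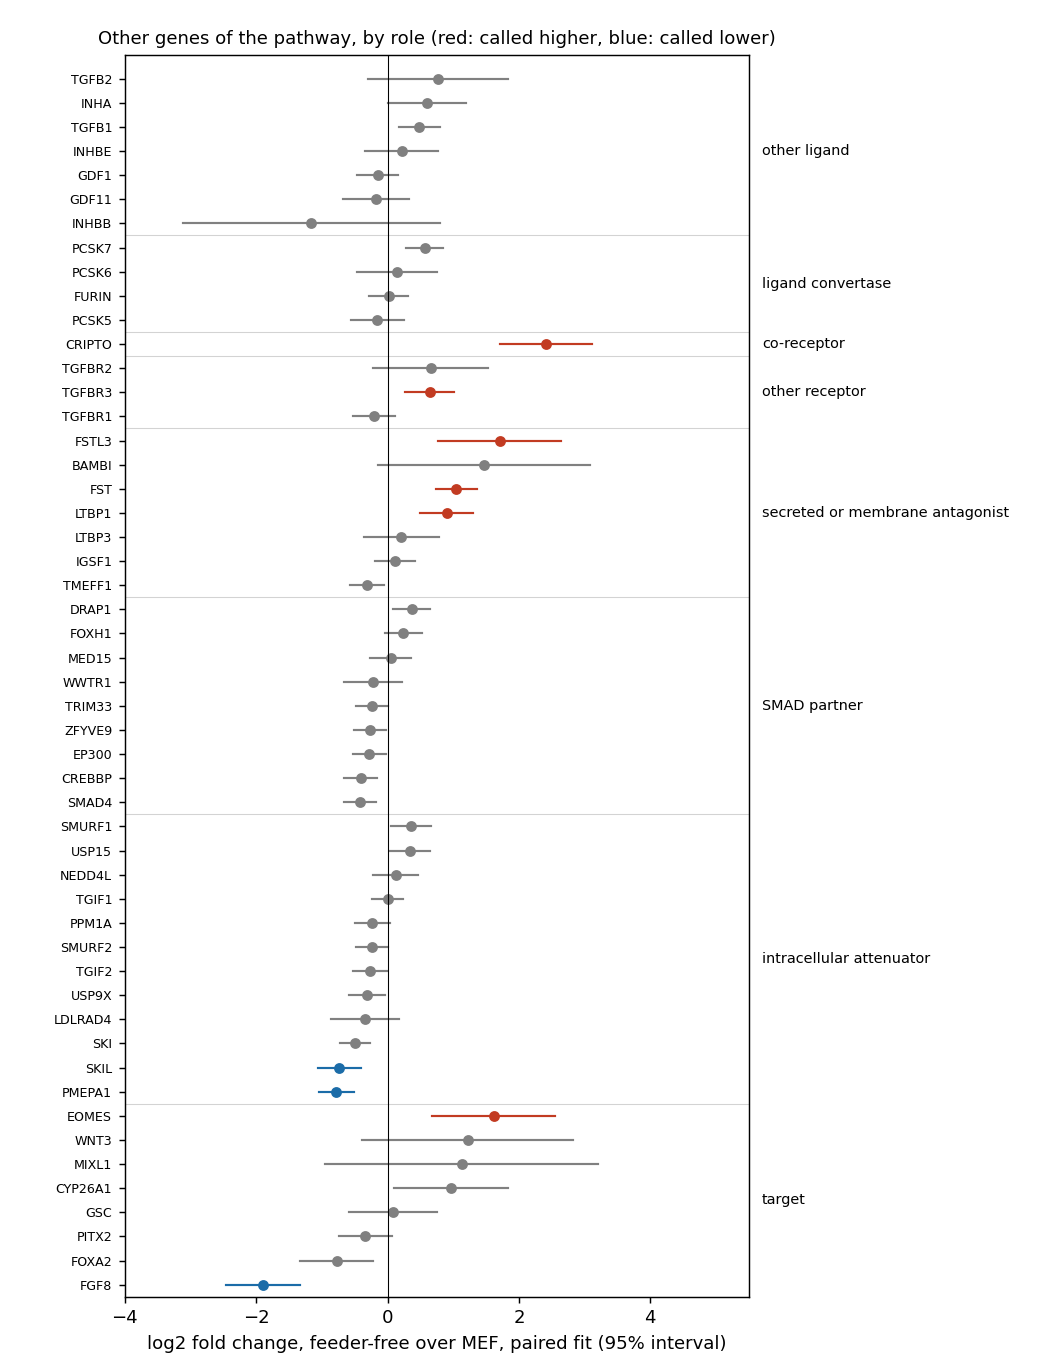
Paired log2 fold change, feeder-free over MEF, with 95% intervals (x axis) for the 51 other genes of the pathway that were tested, grouped by role. Red genes were called higher (6, with FST, FSTL3 and LTBP1 in the group listed as antagonists outside the cell). Blue genes were called lower (3, with SKIL and PMEPA1 among attenuators inside the cell).

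The genes whose log2 CPM followed that of NODAL most closely over the 8 libraries were LOC781339 (Pearson r of 0.955), S100A11 (0.954) and ZNF543 (0.931), out of 13255 genes with a mean of at least 1 CPM. For LEFTY2 they were STOX2 (0.972), TENM4 (0.969) and ANKRD44 (0.960). With the mean of each condition taken away, NODAL was followed by HAS2 (0.979), ASTN2 (0.972) and KDM4A (0.972), and LEFTY2 by TENM4 (0.982), MSRB2 (0.969) and PCDHGB4 (0.967). These are descriptions over 4 lines that each appear in both conditions, and the libraries of a line share its origin.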

How the data were processed

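RNA of 4 bESC lines per condition was sequenced as paired reads. The authors trimmed reads with Trimmomatic, aligned them to ARS-UCD2.0 with STAR, removed optical duplicates and low-quality alignments, and deposited raw counts per gene from featureCounts (Subread 1.6.2 in the submitters' processing notes). Their methods also describe removing reads of a pure MEF sample, and high oxygen libraries and that sample were not analysed here. Strandedness, and whether reads or pairs were counted, are not given in the sources used here. The methods name RNeasy and the records Trizol, and all records give 1 batch.

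Counts of 32637 genes were filtered with filterByExpr, scaled with TMM and tested with edgeR 4.0.16 in R 4.3.3 (glmQLFit, glmQLFTest), with Benjamini-Hochberg adjustment over 15744 genes. 3 genes had no values. Log2 CPM used a prior count of 2. The fits were tried on simulated counts with a fixed spread between replicates and line effects shared by both conditions. Such counts favour the paired fit, so they do not show which fit suits these data. With the mean of each condition taken away, same-line libraries deviated together (r of 0.421 to 0.664, different lines -0.523 to 0.249). Taking the mean away lowers r between different lines when r within a line is positive, so part of that contrast is built in. The 4 lines are the same in both conditions, so the paired fit is given. Members and lists were chosen with earlier results of these data known. All 10 members were named. So was every pathway gene called in the unpaired or the paired edgeR fit over all 8 libraries, with the 3 largest pathway changes. A few further pathway genes (SMAD4, CREBBP, ZFYVE9 and FOXH1) were chosen after their values were seen. 1 item of the pathway list is not reported here. Exon lengths were not used here, so levels are not ranked between genes. Positions come from RefSeq. Alternatives were RLE, no scaling, other filters, the likelihood ratio test, DESeq2 1.42.0, limma-voom 3.58.1 and each library or line left out.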

Additional observations from a re-analysis of the deposited data

Results flagged for a closer look

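Of 60 groups of 4 libraries examined, 6 held a library set apart from the other 3 by Dixon's criterion, where chance gives about 3. ACVR2B was highest on MEF in line E, at 5.81 on the log2 CPM scale beside 5.60 to 5.62. SMAD2 was highest on MEF in line D, at 6.49 beside 6.15 to 6.20. CRIPTO was highest on MEF in line D, at 2.70 beside 0.05 to 0.25. PMEPA1 was lowest on MEF in line E, at 7.03 beside 7.39 to 7.45. The summed level of pluripotency genes was highest on MEF in line D, at 5744 CPM beside 5063 to 5107 CPM. The total count of the feeder-free library of line D was 102351560, beside 49671478 to 51320214 in the other feeder-free libraries.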

How the results depend on the processing

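For the 10 genes, 153 of 170 alternative log2 fold changes kept their direction and side of the threshold, and 0 genes were called higher in any. The 170 include, for each gene, 1 from dropping the fold change threshold. That value repeats the unpaired fit, so its direction could not change. From 0 called lower in the unpaired fit, the count was 1 with at least 10 counts in every library, 1 by the likelihood ratio test, 1 by DESeq2, 4 with the replicate block, and 0 to 1 without any one library. That 1 was ACVR2B each time. Over all tested genes those called lower were 158 unpaired and 213 of 13889 with at least 10 counts. Of 15744 genes, 389 were called lower by the likelihood ratio test, 517 by DESeq2 and 713 with the replicate block. NODAL turned positive with limma-voom (0.041), the replicate block (0.010), and without MEF line D (0.52), feeder-free line C (0.13) or feeder-free line E (0.19). SMAD7 turned negative without MEF line E (-0.05) or feeder-free line D (-0.20), and without that last library INHBA was -0.013 and SMAD2 -0.022. Without any one library NODAL ranged from -0.66 to 0.52, SMAD7 from -0.20 to 0.25, INHBA from -0.013 to 0.88 and SMAD2 from -0.022 to 0.15. None of these 4 genes was called in any fit, and the cause was not tested. Other pathway genes called higher, 1 unpaired, were 2 by the likelihood ratio test, 4 by DESeq2, 6 with the replicate block and 0 to 1 without any one library. Those called lower, also 1 unpaired, were 0 with no scaling, with no filter or by limma-voom, 2 with at least 10 counts, 3 by the likelihood ratio test, by DESeq2 and with the replicate block, and 0 to 2 without any one library. When line A feeder-free was left out the counts were 1 and 2, and without any other library 0 and 0. Fits over all genes moved likewise, with 259 called higher and 231 lower without that library and at most 6 in all without any other. Genes called higher over all those tested were 114 unpaired, 448 by the likelihood ratio test, 695 by DESeq2 and 869 with the replicate block. In the paired fit the 4 genes called became 1 to 2 without any one line, with LEFTY2 called each time. The count was 2 with the replicate block and no scaling (chosen after seeing the data), 3 with RLE and 4 by DESeq2. Over all 15744 tested genes these 3 paired fits called 595, 676 and 840 lower. The 9 pathway genes called became 5 to 10 without any one line. Over all tested genes, paired fits without any one line called 376 to 918 higher and 366 to 733 lower. The count of genes differing between lines stayed at 4 with RLE and was 5 by DESeq2, which added INHBA.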
